A study of Mus musculus with 2 samples.

Results

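The suprabasal keratins of mouse epidermis, *Krt1*, *Krt10*, *Krt2*, *Krt77*, *Krt78* and *Krt80*, were followed across keratinocyte stages and between 2 libraries. These 6 genes were taken by name from the 19059 genes in the count tables. The rule that named them used no measured value, but earlier results of these data were known when they were chosen. All 6 were listed in both tables.

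Dorsal skin was sampled with a 6 mm punch from 1 wildtype mouse of the C57BL/6J strain and from 1 *Eppk1*-/- mouse, whose line had been backcrossed to that strain, and was dissociated whole into single cells. Neither mouse was treated, and the ages were not given in the sources used here. The *Eppk1*-/- mouse lacks epiplakin, a large linker protein that binds keratin filaments. RNA was read with the 10x Genomics Fixed RNA Profiling (Flex) assay, in which pairs of probes hybridize to the RNA of fixed cells and each ligated pair is counted once by its unique molecular identifier (UMI). The probe sets differ between genes and their positions are not used here, so that levels were compared between cell groups and libraries, never between genes.

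There was 1 mouse per genotype, so that differences between genotypes were not testable and are given without p-values. Levels are the UMIs of a gene summed over the cells of a group, per 1000000 UMIs of that group (CPM). Parentheses hold 95% intervals, from the exact Poisson method for CPM, an exact conditional binomial method for ratios and Clopper-Pearson for shares. They cover counting error only, not the spread between mice. The wildtype library held 9179 cells with a median of 5078 UMIs and the *Eppk1*-/- library 8811 cells with a median of 5093. After the filters of the study, 8875 and 8617 cells were left, of which 5533 and 4069 were keratinocytes with 36667234 and 24886417 UMIs. The libraries had 1211 droplet barcodes in common, since the mice were told apart by a probe barcode and pooled before droplets were made. The targeted gene *Eppk1* was at 3012 CPM in keratinocytes of the wildtype and at 793 CPM in those of the *Eppk1*-/- mouse. Its level was 1240 and 64.1 CPM in basal-like cells, 6881 and 3077 CPM in granular-like cells, and 104 and 528 CPM in the latest cells, where, alone among the named keratinocyte groups, it was higher in the *Eppk1*-/- library. Whether the *Eppk1* probes lie inside the deleted part is not given in the sources used here.

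Keratins are the intermediate filament proteins of epithelia, and a filament forms only from pairs of an acidic (type I) and a basic (type II) chain. Basal cells of the epidermis build their filaments from *Krt5* and *Krt14*, and cells that leave the basal layer replace these with *Krt1* and *Krt10*, the pair by which spinous cells are known. *Krt2* is a late partner in the upper layers, best known from ear, sole and tail skin of the mouse. *Krt77*, *Krt78* and *Krt80* are less studied type II keratins of differentiating epithelia. Among the 6 genes *Krt10* alone encodes a type I chain.

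Cells were clustered without the 6 genes among the variable features, so that the stages were not formed by them. Stages were named from marker lists that contain none of the 6. The basal-like stage held 1556 wildtype and 1238 *Eppk1*-/- cells, the spinous-like stage 927 and 859, and the granular-like stage 397 and 242. The latest stage, a small cluster led by late cornified envelope genes such as *Lce1a2* and *Lce1b*, held 49 and 35 cells. A cluster of 180 and 118 cells scored almost alike for basal (0.595) and spinous (0.416) markers and is called mixed. Median depth ran from 4394 and 4155 UMIs in basal-like cells to 22473 and 21291 UMIs in granular-like cells. The summed markers followed the names: basal markers were at 30883 and 32242 CPM in basal-like cells and at 1066 and 837 CPM in granular-like cells, whereas granular markers went from 236 and 204 CPM to 31945 and 44648 CPM. The granular-like cluster scored 1.32 for granular and 1.23 for spinous markers, and without integration or without the highest doublet scores the same region of cells was named spinous-like. For this reason some levels and ratios below are also given for the spinous-like, granular-like and latest clusters together, called suprabasal. Levels of kept cells by single stage are from the main clustering only.

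In the reference annotation (mm10) the 5 type II genes lie in the keratin cluster of chromosome 15 and *Krt10* lies in the type I cluster of chromosome 11, all on the minus strand. *Krt1* (chr15:101845426-101850794) has *Krt77* (chr15:101858731-101869705) 7.9 kb to one side and *Krt2* (chr15:101810689-101818169) 27.3 kb to the other. *Krt78* (chr15:101946001-101954287) is 95.2 kb and *Krt80* (chr15:101347444-101370162) 475.3 kb away from *Krt1*. *Krt10* spans chr11:99385254-99389364. *Eppk1*, the deleted gene, is also on chromosome 15 (chr15:76101481-76120195), 25.23 to 25.83 Mb from the 5 type II genes.

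The 250 bases before the annotated start are printed here for 4 of the 6 genes, those with an entry in the RefSeq promoter table (GRCm38.p6). All genes with an entry are shown, whatever their levels. The levels of *Krt10* and *Krt77* moved together most closely, *Krt78* rose in the same cells, and *Krt2* had few UMIs at every stage. Capitals mark the letters searched for on both strands: TATANA (TATA box), TTGCNNAA (C/EBP) and TGANTCA (AP-1).
Krt10: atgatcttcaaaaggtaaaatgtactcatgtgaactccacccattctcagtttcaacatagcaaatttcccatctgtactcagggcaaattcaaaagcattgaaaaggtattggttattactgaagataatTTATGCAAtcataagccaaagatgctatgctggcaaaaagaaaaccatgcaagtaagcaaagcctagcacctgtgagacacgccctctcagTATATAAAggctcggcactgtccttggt
Krt77: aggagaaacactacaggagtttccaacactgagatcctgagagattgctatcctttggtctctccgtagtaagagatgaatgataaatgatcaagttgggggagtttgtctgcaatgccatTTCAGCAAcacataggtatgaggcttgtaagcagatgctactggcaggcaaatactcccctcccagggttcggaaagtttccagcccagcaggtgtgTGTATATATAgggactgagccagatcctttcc
Krt78: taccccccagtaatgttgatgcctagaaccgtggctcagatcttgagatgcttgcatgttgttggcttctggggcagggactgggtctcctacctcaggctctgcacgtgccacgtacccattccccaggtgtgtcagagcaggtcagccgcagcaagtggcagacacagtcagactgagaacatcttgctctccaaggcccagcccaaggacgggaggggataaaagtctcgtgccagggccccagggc
Krt2: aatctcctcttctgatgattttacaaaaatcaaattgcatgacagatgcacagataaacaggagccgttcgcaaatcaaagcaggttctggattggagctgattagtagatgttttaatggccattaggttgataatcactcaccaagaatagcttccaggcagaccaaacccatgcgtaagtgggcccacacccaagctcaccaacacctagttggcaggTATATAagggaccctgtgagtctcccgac
These windows are chr11:99389365-99389614, chr15:101869706-101869955, chr15:101954288-101954537 and chr15:101818170-101818419 in this order, all read on the minus strand. TATANA letters, read on either strand, begin 28 bases before the start of *Krt10*, 32 before that of *Krt77* and 29 before that of *Krt2*, with overlapping matches in each, and are not in the window of *Krt78*. Of all 32851 windows of the table, 22.6% hold these letters. TTGCNNAA is in the windows of *Krt10*, 119 bases before the start, and *Krt77*, 129 bases before it, against 9.56% of all windows. TGANTCA is in none of the 4 and in 6.75% of all windows. Such matches are a description of the letters and do not mark a bound site.

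*Krt1*, the type II keratin by which spinous cells are known, was highest in the spinous-like stage and lower in every later one. It stood at 132 CPM (123 to 140) in wildtype and 166 CPM (155 to 178) in *Eppk1*-/- basal-like cells, and at 4601 CPM (4548 to 4655) and 6188 CPM (6122 to 6254) in spinous-like cells. That was a 34.9-fold step in the wildtype and a 37.2-fold step in the *Eppk1*-/- library. The basal-like level under these folds is, as given below, not read as expression. It also pools unlike clusters: the smallest, of 53 and 11 cells, held *Krt1* at 398 and 2731 CPM. In granular-like cells it was down to 1923 and 1696 CPM, 0.418 and 0.274 times the spinous-like level, and in the latest cells to 175 and 44.5 CPM. The mixed cluster held it at 4560 and 4599 CPM, although only 43.3% and 41.0% of its cells had a UMI after thinning. After each cell was thinned to 2000 UMIs, *Krt1* was in 10.6% and 12.8% of basal-like cells, 89.9% and 93.9% of spinous-like cells and 56.7% and 56.0% of granular-like cells. Most spinous-like cells thus carried *Krt1*, whereas the granular-like cluster was split between cells with and without it: per cell its lower quartile was 0 CPM in both libraries and its upper quartile 2581 and 2661 CPM. Thinning left out 42 and 37 spinous-like cells with fewer UMIs, and unthinned shares in that stage were 93.7% and 96.3%.

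*Krt10*, the type I partner of *Krt1*, rose with it and then kept rising. Its level was 447 CPM (432 to 463) and 490 CPM (471 to 509) in basal-like cells, 12637 and 16150 CPM in spinous-like cells and 28994 and 29507 CPM in granular-like cells. The step from basal-like to spinous-like was 28.3-fold and 33.0-fold, again over a basal-like level that is not read as expression. The step from spinous-like to granular-like was 2.29-fold and 1.83-fold. In the latest cells it was at 584 and 488 CPM, 0.0202 and 0.0166 times the granular-like level. Nearly every spinous-like cell (97.5% and 99.1%) and granular-like cell (97.2% and 96.3%) held a *Krt10* UMI after thinning, but only 37.5% and 31.4% of the latest cells.

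*Krt77*, a type II keratin and the nearest of the 6 genes to *Krt1* on the chromosome, had the steeper rise into granular-like cells. It stood at 190 and 203 CPM in basal-like, 6545 and 7440 CPM in spinous-like and 27256 and 26627 CPM in granular-like cells. The granular-like level was 4.16 and 3.58 times the spinous-like level, whereas that of *Krt1* was below it. In the latest cells *Krt77* was at 316 and 485 CPM. Its thinned share was 88.5% and 95.3% in spinous-like, 98.99% and 98.8% in granular-like and 31.2% and 28.6% in the latest cells.

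*Krt78* followed the course of *Krt77* at counts low enough for counting error to matter. Basal-like cells held 19 and 12 of its UMIs, 2.71 CPM (1.63 to 4.22) and 2.29 CPM. It was at 159 CPM (149 to 169) and 116 CPM (107 to 125) in spinous-like cells and at 611 CPM (595 to 627) and 529 CPM (510 to 549) in granular-like cells. The latest cells held 13 and 2 UMIs of it. Of all its keratinocyte UMIs, 78.6% and 75.3% lay in the granular-like cluster, against 31.4% and 17.2% of those of *Krt1*. It was found in 16.6% and 13.6% of spinous-like and 55.9% and 55.2% of granular-like cells after thinning.

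*Krt80* differed from the others at both ends of differentiation. It was already at 549 CPM (532 to 567) and 570 CPM (549 to 590) in basal-like cells. The basal-like clusters differed in it, with 376 and 430 CPM in the largest and 761 and 769 CPM in the next. It rose 3.28-fold in both libraries to 1803 and 1871 CPM in spinous-like cells, and went on to 4908 and 4952 CPM in granular-like cells. In the latest cells *Krt1*, *Krt10*, *Krt77* and *Krt78* were at 0.0914 times their granular-like level or less, but *Krt80* stood at 7886 CPM (7702 to 8072) and 7894 CPM (7680 to 8113), 1.61 and 1.59 times the granular-like level. Every granular-like and latest cell that could be thinned held a *Krt80* UMI. It was also found in 53.7% and 55.3% of basal-like cells and in 63.6% and 64.0% of outer sheath and isthmus-like cells.

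*Krt2*, the late type II keratin of the upper layers, was close to absent from the counts of this dorsal skin. Whether its RNA was scarce or its probes read it poorly was not tested. All keratinocytes together held 43 and 30 of its UMIs, 1.17 CPM (0.849 to 1.58) and 1.21 CPM (0.813 to 1.72), in 36 and 23 cells. Suprabasal cells were at 1.34 and 1.41 CPM. The bulge and germ-like cells were at 2.01 and 4.83 CPM on 6 and 7 UMIs, and the latest cells had 0 UMIs in both libraries. Spinous-like cells held 12 and 14 UMIs against 4 and 1 in basal-like cells. These UMIs lay in 11 and 7 spinous-like cells, and after thinning 4 and 1 of the cells had one, so that no step between stages is read from them. The mixed cluster held 6 UMIs (wildtype) and 0 UMIs (*Eppk1*-/-). *Krt2* is left out of the order below for its low counts.

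**Figure D1:**
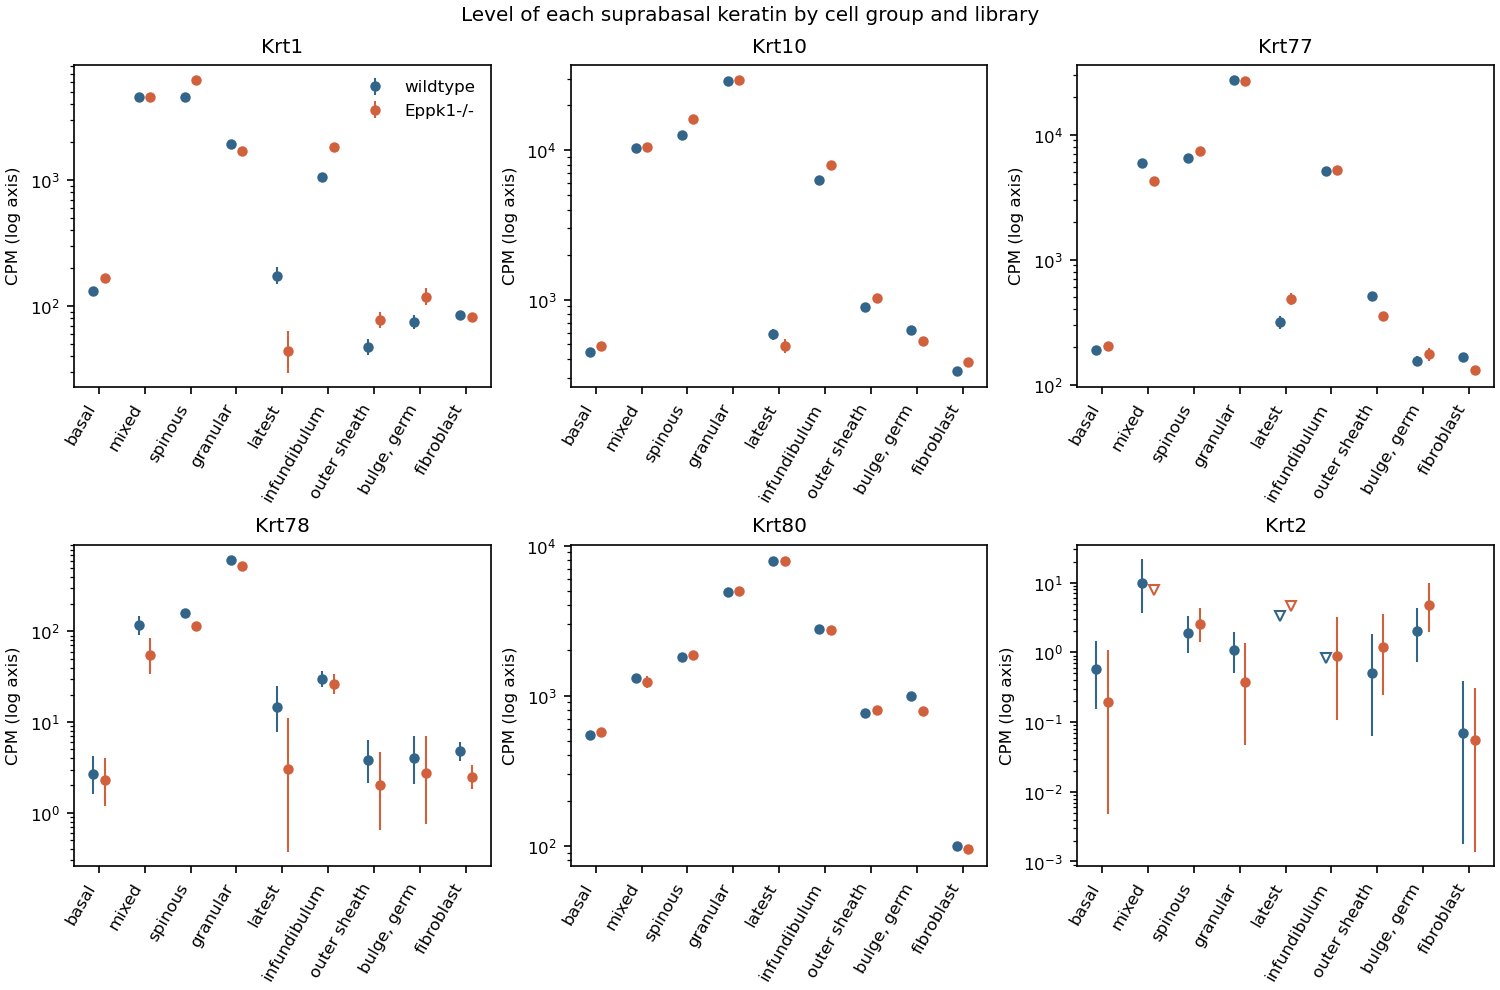
Level of each keratin in CPM on a log axis, by cell group, for the wildtype (blue) and *Eppk1*-/- (orange) library; bars are exact Poisson intervals and open triangles mark 0 UMIs, drawn at the limit that a count of 0 allows. *Krt1* peaks in spinous-like cells, *Krt10*, *Krt77* and *Krt78* peak in granular-like cells, and *Krt80* peaks in the latest cells, in both libraries.

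Free RNA, or more than 1 cell in a droplet, can give UMIs of a gene in cells that do not make it. The background from both, not told apart here, was measured in fibroblast-like cells, the most numerous other cells. Their median depth was 6975 and 6268 UMIs, against 4394 and 4155 in basal-like cells. They held *Krt10* at 334 and 379 CPM and in 36.4% and 33.2% of cells, against 42.5% and 42.7% of basal-like cells after the same thinning. The basal-like level of *Krt10* was thus only 1.34 times (1.28 to 1.40) and 1.29 times (1.23 to 1.35) the fibroblast-like level. *Krt77* in basal-like cells was 1.15 and 1.56 times, *Krt1* 1.54 and 2.03 times, and *Krt78* 0.578 times (0.322 to 0.955) and 0.942 times (0.441 to 1.75) the fibroblast-like level. The thinned share of *Krt1* was further apart, with 10.6% and 12.8% of basal-like against 3.0% and 2.88% of fibroblast-like cells. By level *Krt80* was the exception. Basal-like cells held 5.52 times (5.19 to 5.87) and 5.96 times (5.62 to 6.33) as much *Krt80* as fibroblast-like cells, and 53.7% and 55.3% of them had a UMI against 11.2% and 11.3%. The ratio between genes shows the same: *Krt80* made up 23.0% and 20.1% of the UMIs of *Krt80* and *Krt10* in fibroblast-like cells but 55.1% and 53.8% in basal-like cells. These folds depend on the cells chosen as background. Over the 8 groups of other cells *Krt10* ran from 159 CPM in wildtype sebaceous-like to 1111 CPM in *Eppk1*-/- mast and basophil-like cells, and the basal-like levels of *Krt1*, *Krt10*, *Krt77* and *Krt78* lay within such ranges. *Krt80* reached at most 220 CPM, in wildtype Langerhans and dendritic-like cells, and its basal-like levels of 549 and 570 CPM were above all 8 groups. Basal-like levels of *Krt1*, *Krt10*, *Krt77* and *Krt78* are therefore not read as expression, and those of *Krt80* as above the background. For *Krt1* and *Krt10* the thinned share was above that of fibroblast-like cells in both libraries, so that expression of either in some basal-like cells is not excluded.

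**Figure D2:**
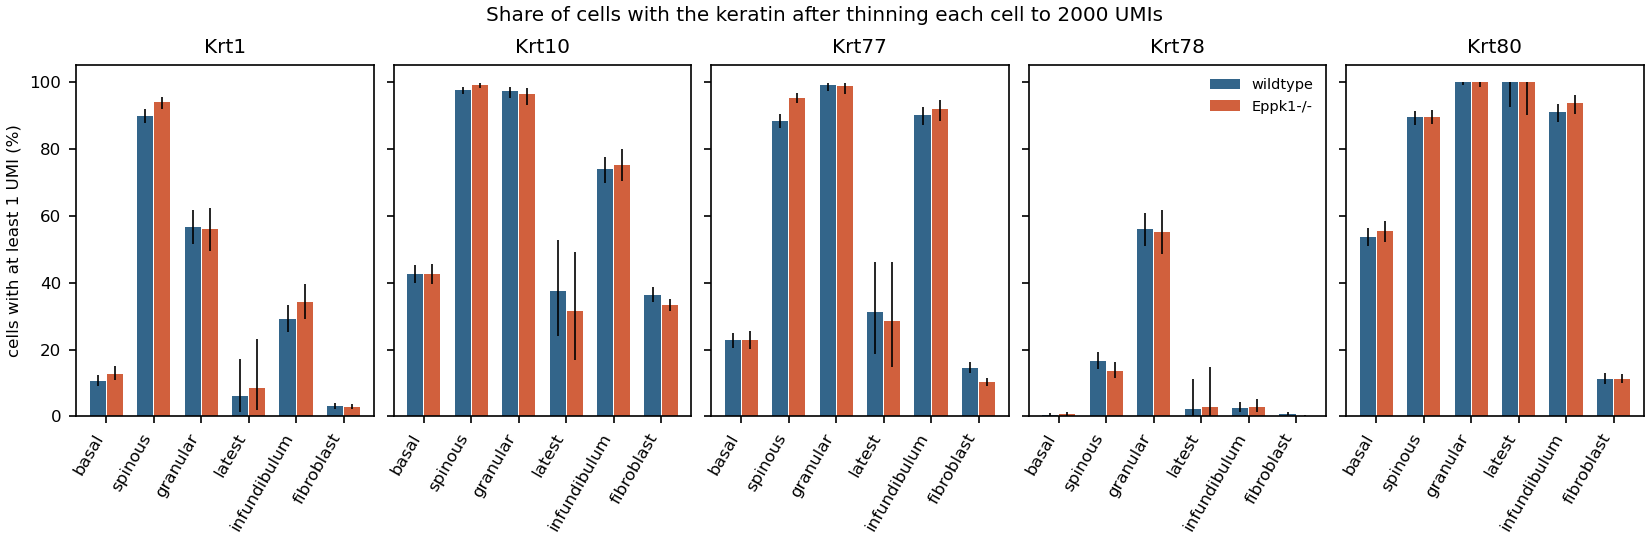
Share of cells in percent with at least 1 UMI of the keratin after each cell was thinned to 2000 UMIs, by cell group and library, with exact Clopper-Pearson intervals. Fibroblast-like cells show the background level. *Krt10* is in 42.5% and 42.7% of basal-like and 36.4% and 33.2% of fibroblast-like cells, whereas *Krt80* is in 53.7% and 55.3% against 11.2% and 11.3%.

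To order the onset, the 5303 basal-like, spinous-like, granular-like and latest cells of both libraries were ranked by a differentiation score, the mean of spinous and granular markers minus that of basal markers, and divided into 20 bins. Onset was the first bin in which a gene reached 50% of its highest bin. *Krt1* came first, in bin 13 of the wildtype and bin 12 of the *Eppk1*-/- library, and was highest in bin 16 of both. *Krt10* followed in bin 15 of both libraries and was highest in bin 19 and bin 18. *Krt77* and *Krt78* shared the next place, bin 17 in the wildtype and bin 18 in the *Eppk1*-/- library, and both were highest in bin 19. *Krt80* came last, in bin 19, and was highest in bin 20, the end of the range. The order was thus the same in both libraries and no gene's onset differed between them by more than 1 bin.

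Along the bins *Krt1* rose from 500 and 383 CPM in bin 9 to 5696 and 7528 CPM in bin 16 and was down to 327 and 186 CPM in bin 20. *Krt10* still stood at 16130 and 16569 CPM in bin 20, about the level it had in bin 15, and *Krt77* at 16650 and 16471 CPM. *Krt80* went from 4473 and 4652 CPM in bin 19 to 7337 and 7278 CPM in bin 20. Bins 19 and 20 held 217 and 228 granular-like and 44 and 38 latest cells, and bin 18 was the first in which granular-like cells were the majority. The place of *Krt80* depended on the level that counts as onset. At 25% of the highest bin it began in bin 15 and bin 14, level with or before *Krt77*, and at 10% in bin 11 and bin 1, since its level in basal-like cells was already close to 10% of its highest. With the granular markers left out of the score its onset moved to bin 16, before those of *Krt10* and *Krt77* in bins 18 and 19. *Krt1* came before *Krt10* and *Krt77* under each of the alternatives tried, with diffusion pseudotime giving bin 13 for *Krt1* in both libraries and bins 18 and 16 for *Krt10*. Each onset is relative to a gene's own highest bin, so that a gene that keeps rising is placed later. From bin 9 to bin 12 *Krt1* rose from 500 and 383 to 2761 and 3992 CPM. Over the same bins *Krt10* rose from 846 and 1017 to 5813 and 9265 CPM. The order is therefore not read as *Krt1* appearing before *Krt10*.

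**Figure D3:**
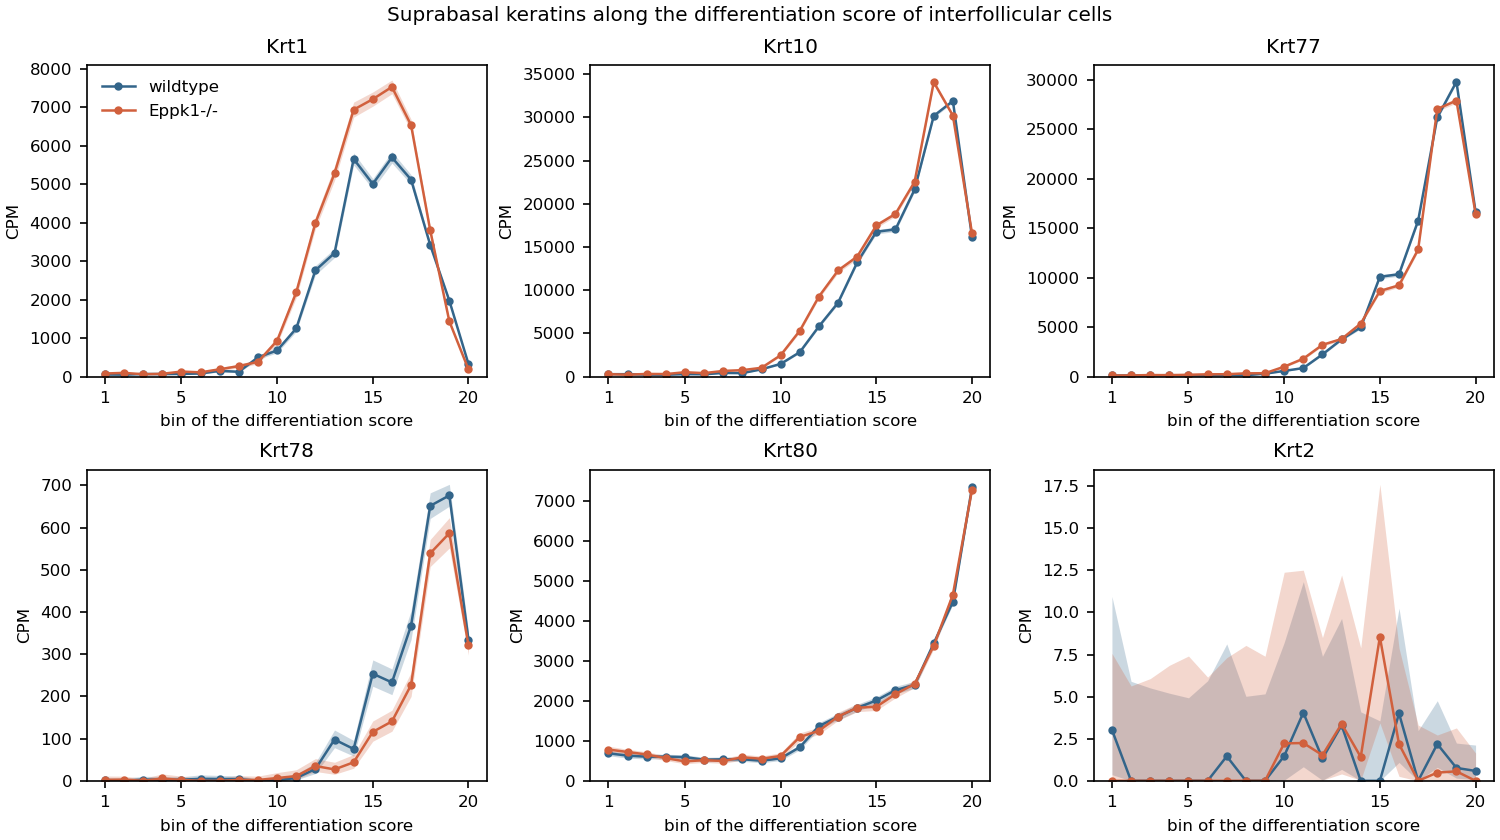
CPM of each keratin in 20 bins of the differentiation score, from most basal (1) to most differentiated (20), for each library; bands are exact Poisson intervals. *Krt1* forms a hump with its highest value in bin 16, *Krt10*, *Krt77* and *Krt78* are highest in bin 18 or bin 19, *Krt80* climbs to bin 20, and *Krt2* stays near 0.

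Within cells, the make-up of the 6 keratins changed with the stage. Such shares depend on the probes of each gene, so that a share is compared only between stages. In spinous-like cells *Krt1* made up 26.7% (26.4 to 27.0) of wildtype and 27.7% (27.5 to 28.0) of *Eppk1*-/- UMIs of *Krt1* and *Krt10*. In granular-like cells it made up 6.22% (6.13 to 6.31) and 5.43% (5.32 to 5.55). Single cells showed the same: among cells with at least 20 such UMIs the median share was 28.4% and 27.0% in 768 and 786 spinous-like cells and 3.29% and 3.22% in 353 and 217 granular-like cells. The quartiles of the stages did not meet, with a lower quartile of 17.8% and 17.2% in spinous-like and an upper quartile of 8.45% and 7.27% in granular-like cells.

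*Krt77* went the other way. It made up 34.1% and 31.5% of the UMIs of *Krt77* and *Krt10* in spinous-like and 48.5% and 47.4% in granular-like cells. *Krt80* made up 12.5% and 10.4% of the UMIs of *Krt80* and *Krt10* in spinous-like, 14.5% and 14.4% in granular-like and 93.1% and 94.2% in the latest cells. Of all UMIs of a stage, the 6 keratins together took 0.132% and 0.143% in basal-like, 2.57% and 3.18% in spinous-like, 6.37% and 6.33% in granular-like and 0.898% and 0.891% in the latest cells.

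**Figure D4:**
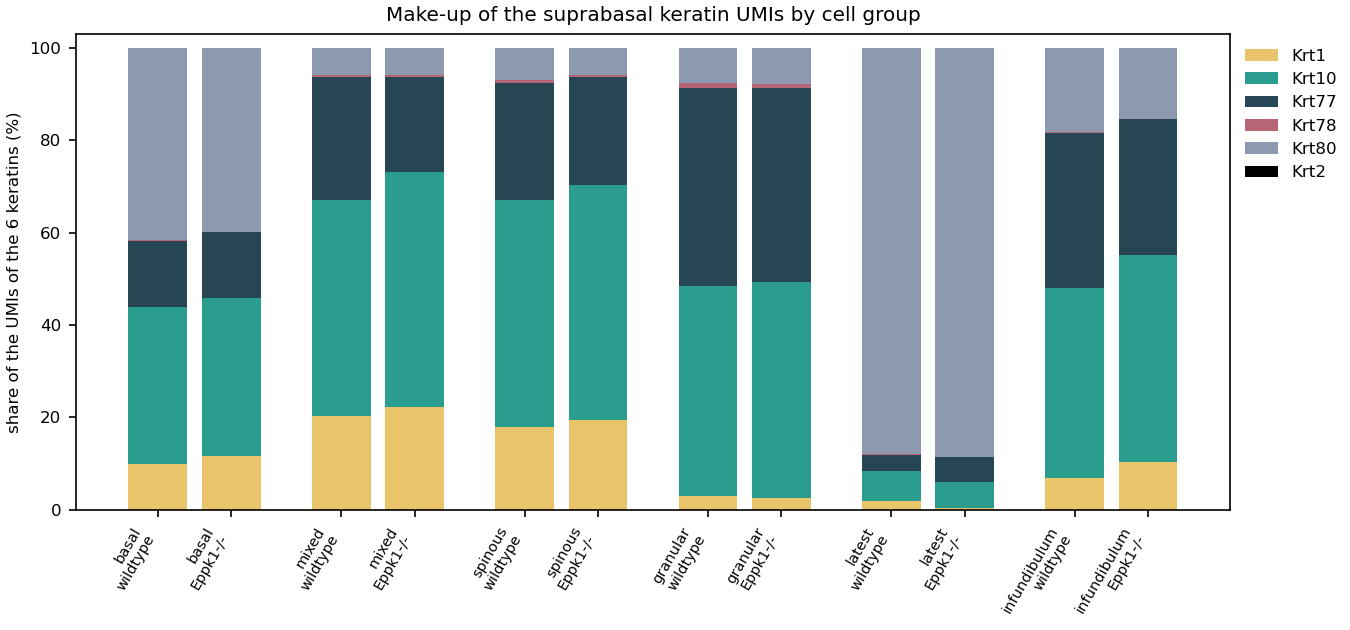
Share of each keratin among the UMIs of all 6, in percent, by cell group and library. *Krt1* takes 17.9% and 19.5% in spinous-like but 3.02% and 2.68% in granular-like cells, *Krt80* takes 87.9% and 88.6% in the latest cells, and *Krt2* is too small to see.

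The upper hair follicle also held these keratins. In the infundibulum-like cells, which are led by *Krt79*, *Krt10* stood at 6292 and 7947 CPM, *Krt77* at 5154 and 5232 CPM and *Krt80* at 2790 and 2730 CPM. *Krt80* was 1.55 and 1.46 times its spinous-like level there, whereas *Krt1* was 0.231 and 0.297 times and *Krt78* 0.190 and 0.231 times theirs. *Krt77* was in 90.1% and 91.9% of these cells after thinning but *Krt1* in 29.2% and 34.3%. Deeper in the follicle *Krt80* remained above the fibroblast-like level, with 768 and 802 CPM in outer sheath and isthmus-like cells. The bulge and germ-like group joined 3 clusters that differed in *Krt80*. It was at 525 and 532 CPM in the cluster led by *Krt24*, at 1448 and 1110 CPM in the one led by *Fgf18*, and at 1984 and 1951 CPM in the one led by *Krt75*, a companion layer gene, which held 61 and 12 cells. The pooled level of this group is therefore not compared between genotypes. *Krt1* was at 47.8 and 77.8 CPM in outer sheath and isthmus-like and at 85.4 and 81.8 CPM in fibroblast-like cells. Its thinned share went the other way, with 5.26% and 4.43% of outer sheath and isthmus-like against 3.0% and 2.88% of fibroblast-like cells, so that no order is read from these values. In proliferating cells *Krt80* was at 896 and 831 CPM and *Krt1* at 250 and 169 CPM.

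Other genes were ranked by how closely they followed each keratin over the 14 keratinocyte clusters with at least 20 cells in each library, as the lower of the Pearson correlations of the libraries among 8425 genes. The 14 include the clusters led by collagen and by macrophage genes, which stayed unnamed and held much *Krt10* and *Krt77*. The clusters share their library and some lie on the same basal to granular gradient, so that the correlations serve as a ranking and were not tested. *Krt10* was closest to *Krt77* (0.98), then to *Ankrd35* (0.96) and *Skint9* (0.96), and *Krt77* was closest to *Krt10* with the same genes next. *Krt1* was closest to *Mt4* (0.94), a metallothionein of stratified epithelia that is one of the spinous markers used here, then to *D7Ertd443e* (0.92) and the alkaline ceramidase gene *Acer1* (0.92). *Krt78* was closest to *Tesc* (0.96), *Krt77* (0.95) and *Pdlim2* (0.94). *Krt80* was closest to *Nipal4* (0.95), *Cysrt1* (0.94) and *Trex2* (0.92), and its correlation with *Krt10* was 0.52 and with *Krt1* 0.38. *Krt2* had too few UMIs to be ranked.

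Between the genotypes, the 6 keratins together took almost the same part of summed keratinocyte UMIs, with a log2 ratio of *Eppk1*-/- over wildtype of -0.02 (-0.02 to -0.01). *Krt1* was higher in the *Eppk1*-/- library at 2077 against 1557 CPM, a log2 ratio of 0.42 (0.40 to 0.43), and *Krt78* was lower at 148 against 198 CPM, a log2 ratio of -0.42 (-0.47 to -0.36). The summed ratio turned to 0.20 as a mean over cells and to 0.21 with cells thinned to 2000 UMIs, and that of *Krt77* to 0.02 and 0.04. The log2 ratio was 0.04 for *Krt10*, -0.16 for *Krt77*, -0.08 for *Krt80* and 0.05 (-0.68 to 0.75) for *Krt2*. Of the 6 members 0 reached a log2 ratio of 0.5 in either direction, and their median was -0.02, 3 lying above and 3 below 0. Among all 11800 genes with at least 50 UMIs, 3.25% were higher and 4.58% lower by that rule, and the median was -0.01. In spinous-like cells 0 of the 5 members with enough UMIs reached it, against 3.39% of genes higher and 3.94% lower, and in granular-like cells 0 of 5, against 4.14% and 4.18%. Counts of 0 among 5 or 6 genes lie near these shares and are no result about the members.

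The difference in *Krt1* varied with the stage. In spinous-like cells its log2 ratio was 0.43 (0.41 to 0.45) and in infundibulum-like cells 0.79 (0.73 to 0.86), with 1062 CPM in wildtype and 1838 CPM in *Eppk1*-/- cells. In the infundibulum-like cells it was the only one of 5 members past 0.5, where 3.72% of all genes were higher and 4.84% lower. In granular-like cells the ratio was -0.18 (-0.22 to -0.14). Over suprabasal cells together it was 0.40 (0.38 to 0.42), beside 0.01 for *Krt10*, -0.17 for *Krt77*, -0.44 for *Krt78* and -0.10 for *Krt80*. Over the bins of the score, which compare cells of like score, *Krt1* was higher in the *Eppk1*-/- library in 16 of 20 bins with a median log2 ratio of 0.43. Like score need not mean like differentiation in both libraries, since granular markers enter the score and differed between the libraries within stages. The 4 bins in which it was lower were bins 3, 9, 19 and 20. *Krt10* was higher in 18 of 20 bins with a median of 0.34 and its ratio fell from 0.91 in bin 11 to between -0.08 and 0.18 from bin 14 on. *Krt77* was higher in 13 of 20 bins with a median of 0.08. These counts and medians include bins 1 to 8, which were almost wholly basal-like cells, with 248 basal-like and 17 spinous-like cells in bin 8. Levels of *Krt1*, *Krt10* and *Krt77* in basal-like cells are not read as expression. In bins 10 to 18 the log2 ratio of *Krt1* lay between 0.15 and 0.81. *Krt78* was lower in all 8 bins with at least 50 UMIs, with a median of -0.71 and a range from -1.82 to -0.06. *Krt80* stayed between -0.28 and 0.38 with a median of 0.00. Whether such ratios exceed the spread between mice of 1 genotype cannot be told from 1 library each.

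Marker sums also differed between the libraries. In the spinous-like cluster the granular markers summed to 1488 (wildtype) and 962 CPM (*Eppk1*-/-), and in the granular-like cluster to 31945 and 44648 CPM. The 7 fibroblast markers, of which 0 were without a UMI in the spinous-like cluster, summed to 151 and 204 CPM there and to 89 and 111 CPM in the granular-like cluster. Their part in the keratin ratios was not tested. When each keratinocyte cluster was weighted by its wildtype share of UMIs, the ratio of the 6 keratins together was 0.06, and it was 0.03 with the score bins so weighted, an alternative chosen after the data were seen.

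**Figure D5:**
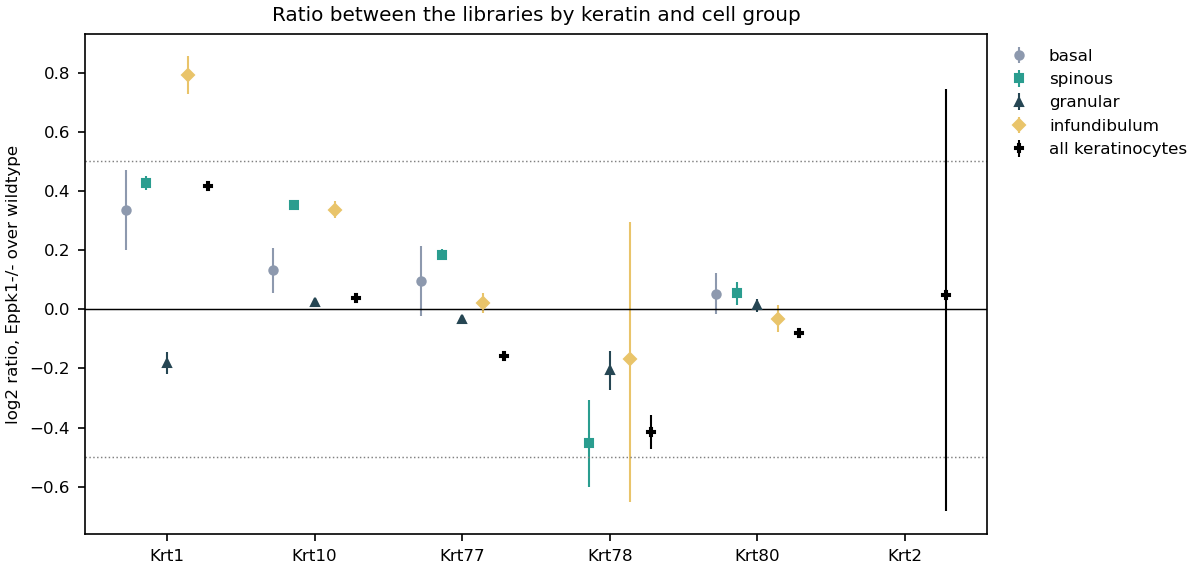
Log2 ratio of CPM, *Eppk1*-/- over wildtype, for each keratin in 4 keratinocyte groups and in all keratinocytes, where both libraries together held at least 50 UMIs; bars are exact intervals for counting error and dotted lines mark 0.5 in either direction. *Krt1* lies above 0 in spinous-like and infundibulum-like cells and below it in granular-like cells, *Krt78* has a negative value in each group shown, and *Krt80* lies between -0.08 and 0.05.

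Genes that work with these keratins were taken from 4 lists, whose counts over all keratinocytes stand beside 3.25% of all genes higher and 4.58% lower. Of 14 desmosome genes, which anchor keratin filaments at cell contacts, 0 reached the rule over all keratinocytes and the median log2 ratio was -0.05, between 0.21 for *Dsg2* and -0.23 for *Dsc2*. Of 28 regulators of epidermal differentiation 1 did, *Hopx* at -0.56, and the highest was *Notch1* at 0.29. Within stages, 1 of 13 counted desmosome genes was lower in spinous-like cells (-1.29) and 1 of 12 in granular-like cells (-0.57). In infundibulum-like cells 2 of 13 were lower, and 0 were higher in each stage. Of the regulators 1 of 28 was higher in spinous-like, 1 of 27 lower in granular-like and 0 of 28 past the rule in infundibulum-like cells. All genes were at 3.39% higher and 3.94% lower, 4.14% and 4.18%, and 3.72% and 4.84%. Of 19 counted genes of filament aggregation and the cornified envelope 2 were higher and 2 lower. *Flg*, whose product bundles keratin filaments, was one of the higher at 0.72, *Rptn* had the highest ratio at 0.89 on 27 and 34 UMIs, and *Sprr2d* had the lowest at -0.90. Of 22 counted other keratins 7 were higher and 3 lower, with a median of 0.14. The higher ones were led by *Krt82*, a hair keratin with 2 UMIs in wildtype and 230 in *Eppk1*-/- keratinocytes, a log2 ratio of 7.09 (5.54 to 10.46). *Krt71* and *Krt25* of the inner root sheath had 12 and 5 UMIs against 505 and 215. Such UMIs also lay in clusters compared above. The log2 ratio of *Krt82* was 9.68 in granular-like cells and that of *Krt71* was 10.64 in infundibulum-like cells. What the cells with these UMIs add to the keratin ratios of those clusters was not tested. The lowest was *Krt90* with 58 and 4 UMIs (-3.14), and *Krt75* of the companion layer had 836 and 135. The stage of the hair cycle of each mouse is not given in the sources used here. Within stages the other keratins did not all lean upward. In spinous-like cells 0 of 7 counted were higher and 2 lower, against 3.39% and 3.94% of all genes, with a median of -0.41. In granular-like cells 4 of 12 were higher and 4 lower, against 4.14% and 4.18%, with a median of 0.23. Many genes of the envelope list, *Flg* and *Cnfn* among them, are also granular markers used to name the stages. Their counts in spinous-like and granular-like cells overlap with the marker sums given above and are no separate result. In spinous-like cells 0 of 17 counted envelope genes were higher and 7 lower, against 3.39% and 3.94% of all genes. Their median log2 ratio was -0.47 and the lowest value, -2.39, was that of *Cnfn*, where the median of all genes was 0.01. In infundibulum-like cells 0 of 17 were higher and 8 lower, against 3.72% and 4.84% of all genes, with a median of -0.37. In granular-like cells 1 of 17 was higher, *Flg* at 1.32, and 1 lower, *Sprr2d* at -0.63, against 4.14% and 4.18% of all genes.

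The upper limits on depth that the study set removed much of the RNA of these keratins. Cells with more than 45000 UMIs or more than 7500 genes were 2.90% of wildtype and 2.10% of *Eppk1*-/- cells within the other limits and held 21.9% and 19.0% of all UMIs. They held 52.1% and 53.9% of the UMIs of the 6 keratins. The share was 57.4% and 62.5% for *Krt78*, 55.2% and 59.1% for *Krt77*, 52.2% and 53.5% for *Krt10* and 46.3% and 47.8% for *Krt80*, but 35.7% and 30.7% for *Krt1*. With no upper limit, 169 and 114 of these 265 and 185 cells fell into granular-like and 61 and 46 into spinous-like clusters. Those in granular-like clusters held *Krt10* at 27073 and 28125 CPM and *Krt1* at 1915 and 1897 CPM, near the levels of the granular-like cells that were kept. Those named spinous-like in this separate clustering without limits differed from the spinous-like cells kept in the main one. *Krt10* was at 31870 and 32765 CPM against 12637 and 16150, and *Krt77* at 31033 and 29579 CPM against 6545 and 7440. *Krt1* was at 2398 and 2633 CPM against 4601 and 6188. These levels were closer to those of the kept granular-like cells, 28994 and 29507 CPM for *Krt10*, 27256 and 26627 for *Krt77* and 1923 and 1696 for *Krt1*. The spinous-like name is therefore not read as the same stage in both clusterings. The level of the 6 keratins in suprabasal cells went from 46356 to 54002 CPM in wildtype and from 45033 to 54143 CPM in *Eppk1*-/- cells without the limits. Whether these cells are large single cells or more than 1 cell in a droplet was not tested.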

How the data were processed

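The authors dissociated whole skin, fixed the cells and counted probe pairs with Cell Ranger 8.0.1 on mm10 (GRCm38), and the deposited values are whole UMI counts per gene and called cell, with no normalization. The limits of the study were applied (200 to 45000 UMIs, 100 to 7500 genes, mitochondrial UMIs up to 10%), after which 13 mitochondrial genes were dropped. Clustering used R 4.3.3 and Seurat 5.3.0 (log-normalization to 10000, 2000 variable features without the 6 keratins, 50 principal components, RPCA integration, resolution 0.5), and keratinocytes were clustered again. The resolution is not given in the sources used here. A cluster was named where at least 3 markers of its list were in at least 25% of its cells and no other list outnumbered them among its 10 leading genes. How the lists were scored was set after the clusters were seen. Of the keratinocyte clusters, 2 led by collagen and by macrophage genes stayed unnamed.

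Doublets were kept. Scrublet in scanpy 1.11.5 called 1 wildtype and 220 *Eppk1*-/- cells at its own threshold, so that for the wildtype it did not work, and an alternative removed the highest 5% of scores in each library. Python 3.11.15 with numpy 2.4.6 and scipy 1.17.1 gave the sums and intervals, with 0.5 UMI added to each sum before a log2 ratio was taken. A count of 0 allows up to 3 counts. The 6 members and the gene lists were chosen with earlier results of these data known. Named in the text were the 6 members, *Eppk1*, the 3 genes most like each member and the highest and lowest gene of each list, and *Cnfn*, *Flg*, *Krt24*, *Krt25*, *Krt71* and *Krt75* were added with their values already known. The procedures were tested on simulated data. The study's SCTransform and its test over single cells were not used, since cells of 1 mouse are not replicates.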

Additional observations from a re-analysis of the deposited data

Results flagged for a closer look

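The ratio between the genotypes turned its sign between stages for 4 genes, each with an interval clear of 0 in both directions, which treats UMIs as independent. None of these differences could be tested with 1 library per genotype. *Krt1* had a log2 ratio of 0.43 in spinous-like and -1.96 in the latest cells, the latter on 156 and 29 UMIs in 8 and 9 cells. Only 4.08% and 2.86% of the latest cells held 5 or more of them, and the share of cells with any ran the other way, 16.3% in wildtype against 25.7%. *Krt10* had 0.35 in spinous-like and -0.26 in the latest cells. Its level in the latest cells, 584 and 488 CPM, lay within the range of the other cell groups used as background, 159 to 1111 CPM. The levels of *Krt1* and *Krt77* in the latest cells also lay within the ranges of those groups. The negative sign of *Krt10* in the latest cells is therefore not read as a change in expression. *Krt77* had 0.62 in the latest and -0.034 in granular-like cells, but its median over the latest cells was lower in the *Eppk1*-/- library, at 75.4 against 111 CPM. The signs of *Krt1* and *Krt77* in the latest cells thus rested on a few cells. *Eppk1* itself had 2.33 in the latest and -4.27 in basal-like cells. The latest cluster held only 49 and 35 cells.

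Cells above the upper limits on depth, which enter the comparisons only where the limits were lifted as an alternative, held 52.1% of wildtype and 53.9% of *Eppk1*-/- UMIs of the 6 keratins.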

How the results depend on the processing

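With 1 library per genotype the spread between mice is unknown for every genotype ratio. Counts were low for *Krt2* at all stages and for *Krt78* in basal-like and latest cells. No paired analysis was possible because each genotype has 1 library. *Krt1* kept a positive log2 ratio over all keratinocytes under all 13 alternatives (0.26 to 0.57) and *Krt78* a negative one (-0.47 to -0.22), while those of *Krt2* (-1.02 to 0.54), *Krt10* (-0.02 to 0.30), *Krt77* (-0.21 to 0.04) and *Krt80* (-0.12 to 0.01) lay on both sides of 0. The cause of the moves that follow was not tested. The level of the 6 keratins in suprabasal cells, 46356 CPM in wildtype and 45033 CPM in *Eppk1*-/- cells, was 50057 and 48471 at resolution 1, 47771 and 45919 without integration, 46739 and 45502 without the highest 5% of Scrublet scores, 46501 and 45317 with at least 1000 UMIs and 500 genes, 54002 and 54143 with no upper limit, and 48609 and 47156 with the 6 genes left out of the total. Their log2 ratio of -0.02 over all keratinocytes became -0.014 with at least 1000 UMIs and 500 genes, 0.022 with no upper limit, -0.012 with TMM, -0.0040 when centred on the median of all genes, 0.20 as a mean over cells, 0.21 after thinning, 0.057 with clusters and 0.034 with score bins weighted by wildtype shares, and -0.072 in interfollicular clusters only. The last pair was chosen after the data were seen. *Krt1* and *Krt2* passed 0.5 in either direction as a mean over cells and after thinning (2 members each). *Krt1* was at 0.57 in both, but *Krt2*, on few UMIs, was at 0.54 as a mean over cells and at -1.02 after thinning. Genes past 0.5 went from 7.83% to 24.3% with no minimum of UMIs. The share of spinous-like cells with *Krt1*, 89.9% and 93.9%, was 93.7% and 96.3% unthinned, 81.0% and 89.0% thinned to 1000 UMIs and 81.1% and 87.5% with at least 5 UMIs. Of the 3 neighbouring pairs in the order *Krt1*, *Krt10*, *Krt77* and *Krt80*, 1 kept its order in the wildtype with the granular markers left out of the score. *Krt1* as a share of *Krt1* and *Krt10* was 28.4% and 27.0% in spinous-like and 3.29% and 3.22% in granular-like cells as a median over cells. Without a minimum of UMIs 29 rather than 10 of the other keratins, and with weighted clusters 0 rather than 1 of the regulators, passed 0.5.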
